A study of Mus musculus with 15 samples.

Results

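The 34 genes described here encode the enzymes and carriers of glycolysis together with the oxygen sensors and target genes of the hypoxia response. They were taken by symbol from a table of 27179 mouse genes, and all 34 have a row. Of these, 33 passed the filter on low counts, as did 13883 genes in all, and the neuronal enolase Eno2 did not. RNA was measured in epithelial cells of Lrig1-eGFP-IRES-CreERT2 x APCmin mice, which carry an Apc mutation that gives intestinal tumors and a green fluorescent reporter of Lrig1, a surface protein of crypt stem and progenitor cells. Epcam-positive cells without the leukocyte marker CD45 or the endothelial marker CD31 were sorted by the reporter into Lrig1-high and Lrig1-low fractions. The groups are Lrig1-high cells of colonic tumors (3 libraries, S04, S08 and S12), Lrig1-low cells of colonic tumors (3 libraries, S03, S07 and S11), Lrig1-high cells of normal colonic epithelium (4 libraries, S02, S06, S10 and S14) and Lrig1-low cells of normal colonic epithelium (4 libraries, S01, S05, S09 and S13). All groups come from the same cross, so the normal epithelium is from the mutant strain too. The labels name no animal, age or sex, and do not say whether libraries share an animal, so the spread between libraries may be technical in part.

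Glycolysis breaks glucose down to pyruvate in the cytosol, and lactate dehydrogenase turns the pyruvate into lactate when it is not passed to the mitochondria. When oxygen is scarce, the prolyl hydroxylases of the Egln family no longer mark the HIF transcription factors for destruction, and HIF with its partner Arnt raises the genes of glucose uptake, glycolysis and lactate export. In the intestine, oxygen falls from the crypt base to the villus tip or the colonic surface, and tumors often hold poorly supplied regions.

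The 14 libraries held 9508505 to 17296536 counts each. A further tumor Lrig1-low library, S15, held 357 counts, none of them in the 34 genes, and was left out. Epcam reached 605 to 1509 CPM (a gene's counts scaled to a common library total after TMM normalisation), Pecam1 at most 1.85 CPM and Ptprc at most 46.1 CPM, the last in S08. A list of 7 colon markers summed to 35.8 to 272 CPM with Hoxd13 at 0 in all 14 libraries, against 1250 to 11369 CPM for 12 enterocyte markers, so the colon is named by the labels only. Lrig1 RNA went against the sort label in S07, S09 and S10, and was low for the label in S08. It stood at 36.4 CPM in S10, labelled Lrig1-high, and at 142 CPM in S07 and 85.5 CPM in S09, labelled Lrig1-low. S08, labelled Lrig1-high, had 55.7 CPM, between the ranges of the 2 labels. The other labelled Lrig1-high libraries held 72.5 to 148 CPM and the other labelled Lrig1-low libraries 43.0 to 54.0 CPM. S12 stood apart in another way, with 42.8% of its counts in mitochondrial ribosomal RNA against 12.9% to 27.1% elsewhere. S12 also had the fewest genes with 10 or more counts, at 10323 against 12159 to 13526 elsewhere. For the main counts and for genes that turn on these 5 libraries, values without them are given as well. S07, S08, S09 and S10 were chosen for RNA values in these same data, so fits without them are alternatives only.

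Per kilobase of exon, the most abundant members were Ldha, the lactate dehydrogenase subunit that favors lactate formation, at a mean of 202 CPM per kilobase over the 14 libraries, the aldolase Aldoa at 144, the pyruvate kinase Pkm at 113, the glucose phosphate isomerase Gpi1 at 85.0 and the enolase Eno1 at 80.8. Triose phosphate isomerase Tpi1 followed at 79.9 and phosphoglycerate kinase Pgk1 at 58.5 CPM per kilobase. Hif1a, the oxygen-regulated HIF subunit, had a mean of 30.2 CPM per kilobase, about the level of the carbonic anhydrase Car9 at 32.3. The oxygen-regulated subunit of the other HIF complex, Epas1, had 7.50 CPM per kilobase. Gapdh, a glycolytic enzyme known for high expression in nearly all tissues, was counted at 1.27 to 7.40 CPM only. Of the 35-base windows of its transcript, 83.8% also occur in transcripts of other genes, and the counting command names no option for reads that map to several places. The share was 76.2% for Eno1, 68.2% for Pgk1, 61.1% for Bnip3, 43.7% for Pkm, 42.0% for Pgam1, 30.4% for Ldha, 29.1% for Gpi1, 28.9% for Aldoa and 14.7% for Tpi1, and 1.6% or less for the other 24 members. The levels of these 10 genes are therefore uncertain and may be too low, and their order above with them. Eno2 was at 0 in 10 of the 14 libraries and reached 0.889 CPM in S11.

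HIF binds DNA at a core of the letters ACGTG or GCGTG, and the promoters of the members were searched for both on either strand. RefSeq promoter windows (GRCm38.p6, 250 bases before to 50 bases after a transcript start) were at hand for 32 of the 34 members. At least 1 window held a core in 29 members, or 90.6%, against 46.7% of 27025 genes. The form ACGTG was found in 24 members, or 75.0%, against 21.8% of all genes. By window, 80.4% of the members' 46 windows held a core, against 43.8% of all 32851, and 58.7% held ACGTG, against 19.6%. The genes compared include many that did not pass the filter on low counts. Gpi1, Tpi1 and Eno2 had no core in their windows, and Adm, Eno1, Pdk1, Pfkl and Pfkp had the GCGTG form only. Since many of these genes were put on the list as known HIF targets, the share describes the list, and a match is not a measured binding site. The stretches below show the cores, in capitals, for Hif1a and Hk2, which stood nearest to the threshold in tumors, and for Ldha, Slc16a3, Bnip3 and Ero1a, which serve lactate formation, lactate export, mitophagy and protein folding. Letters are given 5′ to 3′ on the strand of the gene. CACGTG holds the ACGTG core on both strands, and CACGT and CACGC are cores read on the other strand.
Hif1a (chr12:73907704-73907764, plus strand): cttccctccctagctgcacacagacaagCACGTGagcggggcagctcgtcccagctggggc
Hk2 (chr6:82774474-82774534, minus strand): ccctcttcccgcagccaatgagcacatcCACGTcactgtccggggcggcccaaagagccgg
Ldha (chr7:46845631-46845691, plus strand): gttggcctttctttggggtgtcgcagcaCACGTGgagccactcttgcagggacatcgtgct
Slc16a3 (chr11:120949012-120949072, plus strand): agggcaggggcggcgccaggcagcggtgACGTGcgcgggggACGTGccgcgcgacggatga
Bnip3 (chr7:138909582-138909642, minus strand): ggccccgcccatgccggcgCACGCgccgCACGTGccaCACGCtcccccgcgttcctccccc
Ero1a (chr14:45318603-45318663, minus strand): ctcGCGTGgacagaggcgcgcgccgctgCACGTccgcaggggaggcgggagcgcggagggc
Slc16a3 carries the core in the same orientation at both places, and Bnip3 has a CACGTG flanked by a GCGTG core on each side, both read on the other strand.

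Hif1a was the member nearest to a difference between tumor and normal cells. It had 129.5, 126 and 300 CPM in tumor Lrig1-high libraries S04, S08 and S12 and 187, 115 and 351 CPM in tumor Lrig1-low libraries S03, S07 and S11. In normal Lrig1-high cells it had 87.5, 97.0, 122 and 92.8 CPM in S02, S06, S10 and S14, and in normal Lrig1-low cells 109, 95.7, 93.4 and 106 CPM in S01, S05, S09 and S13. Every tumor library but S07 was above every normal library, and S07 was above every normal library but S10. Over both fractions the log2 fold change of Hif1a was 1.0 ± 0.25 (SE; 6 tumor and 8 normal libraries), with an adjusted p of 0.0541 in edgeR's quasi-likelihood test over all 13883 genes, just short of the threshold of 0.05. The adjusted p of Hif1a was 0.00647 with DESeq2, 0.0241 with limma-voom and 0.0179 without S07, S08, S09 and S10. Without S12 the log2 fold change of Hif1a was 0.69 ± 0.20 (adjusted p = 0.0937), and without S11 it was 0.74 ± 0.22 (adjusted p = 0.171). With S04, S07, S08 or S10 left out, 1 at a time, the adjusted p of Hif1a was 0.0287, 0.0249, 0.0488 and 0.0469. The fold was 1.11 ± 0.35 in Lrig1-low cells (adjusted p = 0.157) and 0.89 ± 0.35 in Lrig1-high cells (adjusted p = 0.384), and in each of these comparisons the tumor libraries of Hif1a lay above all normal ones, as for 3.37% of all genes in Lrig1-high cells. In sorted bulk cells, fewer cells of a type and less RNA per cell cannot be told apart, here and in the results that follow. The sum of a list of 9 endothelial markers, though not most of its genes, was higher in tumor libraries than in 7 of the 8 normal ones. It was 6.50, 33.7 and 28 CPM in tumor Lrig1-high libraries S04, S08 and S12 and 50, 17.5 and 192 CPM in tumor Lrig1-low libraries S03, S07 and S11. In the normal library S10 it was 40.7 CPM, and in the other 7 normal ones 2.17 to 6.27 CPM. Of the 9 genes, Emcn and Cldn5 were at 0 in all libraries, and 4 had a higher mean log2(CPM + 1) in tumors. Pecam1 went the other way, with a mean of 0.277 CPM in tumor and 0.578 CPM in normal libraries. A list of 6 smooth muscle markers summed to 36.2 CPM in S12, against 0.0662 to 7.11 CPM elsewhere, with Des, Cnn1 and Actg2 at 0 in all libraries. The part of the endothelial and smooth muscle markers in the levels of Hif1a was not tested. Nor was it tested for Slc2a1 and Adm, which were highest in S12.

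**Figure D1:**
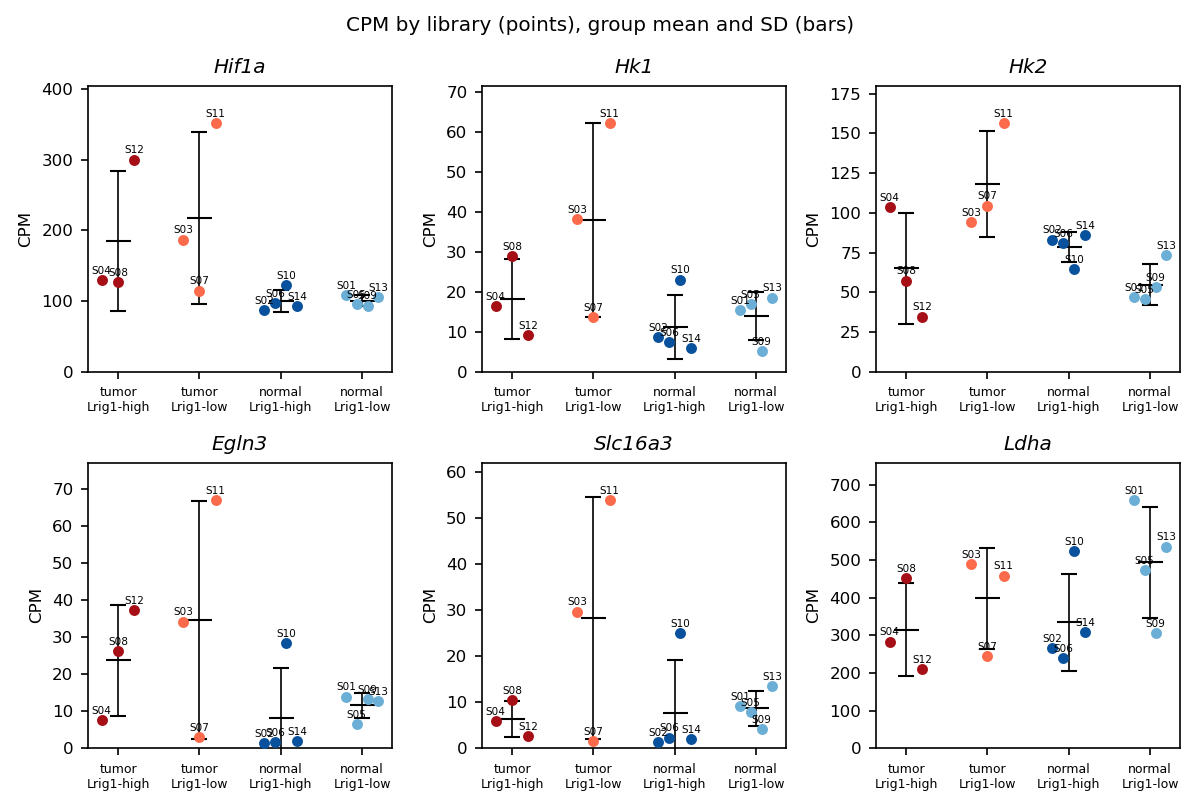
CPM by library (points, named) for 6 members, with group means and SD (bars), in tumor Lrig1-high, tumor Lrig1-low, normal Lrig1-high and normal Lrig1-low cells. Hif1a is at 115 to 351 CPM in tumor libraries and at 87.5 to 122 CPM in normal libraries, while Egln3 is at 26.2 CPM or more in S03, S08, S10, S11 and S12, Slc16a3 is highest in S03, S10 and S11, and Ldha overlaps between all groups.

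None of the 33 tested members passed the threshold between tumor and normal cells. Over both fractions edgeR called 0 members, against 2.22% of all genes tested, and 3 members had an unadjusted p under 0.05, against 17.4% of all genes. DESeq2 and limma-voom each called 1 member, Hif1a, against 7.75% and 3.95% of all genes. The median log2 fold change of the members was 0.07, against -0.02 over all genes, and 19 of 33 members were above 0, against 48.4% of all genes. With single libraries left out, this median ran from -0.01 without S03 or S05 to 0.24 without S10, where 26 of 33 members were above 0. It was 0.39 without S07, S08, S09 and S10 and 0.34 with limma-voom, with 25 of 33 above 0 in each. No member had all tumor libraries above or all below the normal ones, against 0.886% and 0.569% of all genes. In Lrig1-low cells edgeR called 0 members (0.331% of all genes), 4 had an unadjusted p under 0.05 (14% of all genes), and the median was 0.20 against 0.02 over all genes. That median was 0.08 without S11, 0.11 without S09, 0.12 without S03 and 0.58 without S07. DESeq2 called 1 member there, Hk2, against 5.16% of all genes. Limma-voom called 4 members in Lrig1-low cells, Hk1, Hk2, Hif1a and P4ha2, all higher in tumors, against 10.0% of all genes in either direction. In Lrig1-high cells edgeR called 0 members, as it did of all genes (0.0%), and 2 members had an unadjusted p under 0.05, Adm and Hif1a, against 11.2%. The median there was -0.005, with 16 of 33 members above 0 (47.4% of all genes). Without S10 it was 0.49, with 26 of 33 above 0, and without S08 it was -0.19, with 14 of 33. There DESeq2 called none of the members and 0.834% of all genes, and limma-voom called neither a member nor any other gene.

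Of the uptake step, Hk2, the inducible hexokinase that traps glucose in the cell, had 94.0, 105 and 156 CPM in tumor Lrig1-low libraries S03, S07 and S11, against 47.1, 45.8, 53.3 and 73.4 CPM in normal Lrig1-low libraries S01, S05, S09 and S13. The 2 groups did not overlap for Hk2, as for Hif1a, and these 2 of 33 members compare with 9.95% of all genes whose tumor Lrig1-low libraries were all higher. The log2 fold change of Hk2 was 1.11 ± 0.31, with an adjusted p of 0.113 in edgeR, 0.0248 with DESeq2 and 0.0473 without S12, a fit that called 1.57% of all genes higher. The housekeeping hexokinase Hk1 had 38.2, 13.7 and 62.2 CPM in the same tumor libraries, against 15.4, 16.9, 5.15 and 18.6 CPM in normal Lrig1-low libraries. S03 and S11 lay above the normal libraries for Hk1 and S07 among them, and the fold of 1.44 ± 0.61 did not pass (adjusted p = 0.308). Without S07, S08, S09 and S10 the fold of Hk1 in Lrig1-low cells was 1.54 ± 0.34 (adjusted p = 0.0469), and that fit called 3.09% of all genes higher. Slc2a1, the main glucose carrier of many tumors, had 23.4, 22.9 and 67.0 CPM in tumor Lrig1-high libraries S04, S08 and S12, against 16, 13.5, 33.2 and 19.9 CPM in normal Lrig1-high libraries S02, S06, S10 and S14. S10 alone overlapped with the tumor libraries there, and in Lrig1-low cells S03 and S11 were high at 41.9 and 59.7 CPM and S07 low at 12.7 CPM. In Lrig1-high cells the log2 fold change of Slc2a1 was 0.87 ± 0.51 (adjusted p = 0.521), 0.14 ± 0.49 without S12 and 1.20 ± 0.53 without S10. The log2 fold change of Slc2a1 over both fractions was 0.75 ± 0.36 (adjusted p = 0.305).

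The enzymes from Gpi1 to Pkm overlapped between tumor and normal cells in all comparisons. Gpi1 had 212, 173 and 306 CPM in tumor Lrig1-high libraries S04, S08 and S12 and 263, 174 and 266 CPM in tumor Lrig1-low libraries S03, S07 and S11, against 214, 167, 373 and 197 CPM in normal Lrig1-high libraries S02, S06, S10 and S14 and 298, 229, 282 and 246 CPM in normal Lrig1-low libraries S01, S05, S09 and S13. Aldoa had 196, 249 and 248 CPM in tumor Lrig1-high and 387, 139.9 and 425 CPM in tumor Lrig1-low libraries, against 165, 115, 397 and 161 CPM in normal Lrig1-high and 383, 229, 229.5 and 345 CPM in normal Lrig1-low libraries. For both genes S10 stood highest among normal Lrig1-high libraries and S07 was low among tumor Lrig1-low ones. Tpi1 had 115, 114 and 60.7 CPM in tumor Lrig1-high libraries S04, S08 and S12 and 160.3, 99.9 and 149 CPM in tumor Lrig1-low libraries S03, S07 and S11, against 96.6, 132 and 182 CPM as the lowest, the median and the highest of the 8 normal libraries. Only S12 was below all normal libraries for Tpi1. The phosphoglycerate mutase Pgam1 had 25.9, 12.2 and 25.5 CPM in tumor Lrig1-low libraries S03, S07 and S11, against 33.7, 31.4, 21.6 and 33.3 CPM in normal Lrig1-low libraries S01, S05, S09 and S13, a log2 fold change of -0.50 ± 0.31 (adjusted p = 0.56). S09 was the normal library that overlapped. Pgk1 averaged 89.3 ± 1.69 CPM in tumor Lrig1-high, 122 ± 29.2 in tumor Lrig1-low, 102 ± 30.2 in normal Lrig1-high and 108 ± 16.2 CPM in normal Lrig1-low cells (SD; 3, 3, 4 and 4 libraries). Among the phosphofructokinases, which commit glucose to glycolysis, the platelet form Pfkp had 185, 47.9 and 80.5 CPM in tumor Lrig1-low libraries S03, S07 and S11, against 224, 234, 90.3 and 215 CPM in normal Lrig1-low libraries S01, S05, S09 and S13. The log2 fold change of Pfkp was -0.87 ± 0.58 (adjusted p = 0.599). In S12 the liver form Pfkl stood at 2.70 CPM, against 41.3 to 134 CPM in the other 13 libraries, and the muscle form Pfkm at 0.108 CPM, against 8.39 to 13.5 CPM. S12 is the library with the fewest genes counted, and the part of this in its low values was not tested. Pkm had 170.0, 287 and 76.5 CPM in tumor Lrig1-high libraries S04, S08 and S12, against 190.3, 181, 455 and 207 CPM in normal Lrig1-high libraries S02, S06, S10 and S14, and S10 alone stood above all tumor Lrig1-high libraries for Pkm.

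At the end of the pathway, Ldha had 284, 451 and 211 CPM in tumor Lrig1-high libraries S04, S08 and S12 and 490.1, 245 and 459 CPM in tumor Lrig1-low libraries S03, S07 and S11. It had 266, 240.1, 523 and 309 CPM in normal Lrig1-high libraries S02, S06, S10 and S14 and 660.3, 474, 305 and 536 CPM in normal Lrig1-low libraries S01, S05, S09 and S13. The groups overlapped, and the tumor fold over both fractions was -0.20 ± 0.26 (adjusted p = 0.752). The lactate carrier Slc16a3 had 29.7, 1.49 and 54.0 CPM in tumor Lrig1-low libraries S03, S07 and S11, against 9.21, 7.88, 4.09 and 13.5 CPM in normal Lrig1-low libraries. S07 was thus below the normal libraries and the other tumor libraries above them. Pdk1, which keeps pyruvate from mitochondrial oxidation by switching off pyruvate dehydrogenase, had 79.8, 74.5 and 49.0 CPM in tumor Lrig1-high and 73.9, 65.5 and 66.3 CPM in tumor Lrig1-low libraries, against 58.3, 81.0 and 119.9 CPM as the lowest, the median and the highest of the normal libraries. These groups overlapped, and the tumor fold of Pdk1 was -0.28 ± 0.19 (adjusted p = 0.47). Pfkfb3, which makes the activator of phosphofructokinase, had 9.35, 62.2 and 8.33 CPM in tumor Lrig1-high libraries S04, S08 and S12, against 4.23, 8.47, 22.8 and 6.59 CPM in normal Lrig1-high libraries S02, S06, S10 and S14. S08 alone was high among the tumor Lrig1-high libraries for Pfkfb3, and S05 alone in normal Lrig1-low cells, at 54.1 CPM with 5.55 to 16.8 CPM in the other 3. S08 and S05 also had the highest sums of 13 leukocyte markers, at 57.2 and 30.2 CPM, against 5.94 to 23.2 CPM elsewhere. Their sums of 4 tuft cell markers were the highest too, at 740 and 362 CPM, against 12.2 to 244 CPM elsewhere. The part of these cell types in the level of Pfkfb3 was not tested.

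Among the oxygen sensors, the hydroxylase Egln1 ranged from 45.7 to 94.9 CPM in tumor and from 51.4 to 72.1 CPM in normal libraries. Egln3, a hydroxylase gene that HIF itself induces, had 7.69, 26.2 and 37.4 CPM in tumor Lrig1-high libraries S04, S08 and S12 and 34.2, 2.93 and 67.2 CPM in tumor Lrig1-low libraries S03, S07 and S11. It had 1.39, 1.59, 28.4 and 1.95 CPM in normal Lrig1-high libraries S02, S06, S10 and S14 and 13.9, 6.62, 13.2 and 12.8 CPM in normal Lrig1-low libraries S01, S05, S09 and S13. In Lrig1-high cells only S10 reached the tumor range, and in Lrig1-low cells S07 lay below all normal libraries. The log2 fold change of Egln3 over both fractions was 1.54 ± 0.75 (adjusted p = 0.313). Without S10 it was 2.71 ± 0.57 (adjusted p = 0.0239), in a fit that called Egln3 and Hif1a among the members and 2.98% of all genes higher. S10 is also the normal library in which the sum of the endothelial markers lies within the tumor range. It further has the highest sum of the enterocyte markers, at 11369 CPM, and Lrig1 RNA that goes against its label. The part of any of these in the level of Egln3 was not tested. Without S07, S08, S09 and S10 the fold of Egln3 was 2.97 ± 0.44 (adjusted p = 0.00779). That fit called 5 members higher in tumors over both fractions, Hk1, Slc16a3, Egln3, Hif1a and Adm, against 4.37% of all genes. S07 and S10, left out of that fit, are the libraries that stood apart for Egln3, so the fit is an alternative only. Epas1 ranged from 25.7 to 62.2 CPM in tumor and from 12.9 to 66.3 CPM in normal libraries.

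Of the HIF targets outside glycolysis, Adm, the vasodilator peptide adrenomedullin, was counted at 1.74, 0 and 17.4 CPM in tumor Lrig1-high libraries S04, S08 and S12, against 0, 0.265, 0.546 and 0 CPM in normal Lrig1-high libraries S02, S06, S10 and S14. A single library, S12, holds the high value. The log2 fold change of Adm in Lrig1-high cells was 4.90 ± 1.87 (adjusted p = 0.376) and 2.04 ± 1.80 without S12. The prolyl hydroxylase of collagen P4ha2 had 8.59, 0.920 and 18.4 CPM in tumor Lrig1-low libraries S03, S07 and S11, against 0.489, 1.07, 0.264 and 0.467 CPM in normal Lrig1-low libraries, and its fold of 4.01 ± 1.71 did not pass (adjusted p = 0.311). Bnip3, a mitophagy receptor, was highest in S11 at 41.8 CPM and S10 at 14.5 CPM. Vegfa, the vessel growth factor, ranged from 48.3 to 130.2 CPM in tumor and from 39.1 to 87.8 CPM in normal libraries, and its tumor fold over both fractions was 0.31 ± 0.23 (adjusted p = 0.538). Car9, which sets extracellular pH, had 47.6, 56.4 and 97.2 CPM in tumor Lrig1-high and 67.4, 37.5 and 80.1 CPM in tumor Lrig1-low libraries, within or near the normal range of 43.3 to 83.0 CPM. Car9 had a fold of 0.05 ± 0.22 and the oxidoreductase of protein folding Ero1a one of 0.40 ± 0.26 (adjusted p = 0.459). Ndrg1, which is induced by stress and in differentiating epithelium, had the lowest fold of the members between tumor and normal cells over both fractions, at -0.61 ± 0.34 (adjusted p = 0.385), with 64.3, 96.8 and 150 CPM in tumor Lrig1-high and 123, 68.8 and 100.6 CPM in tumor Lrig1-low libraries, against 110.2, 74.3, 284 and 70.6 CPM in normal Lrig1-high and 248, 117, 198 and 133 CPM in normal Lrig1-low libraries. S10 and S01 were the highest for Ndrg1, both normal. The stress gene Ddit4, an inhibitor of mTOR complex 1, the collagen hydroxylase P4ha1 and the ankyrin repeat gene Ankrd37 overlapped between tumor and normal libraries as well.

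**Figure D2:**
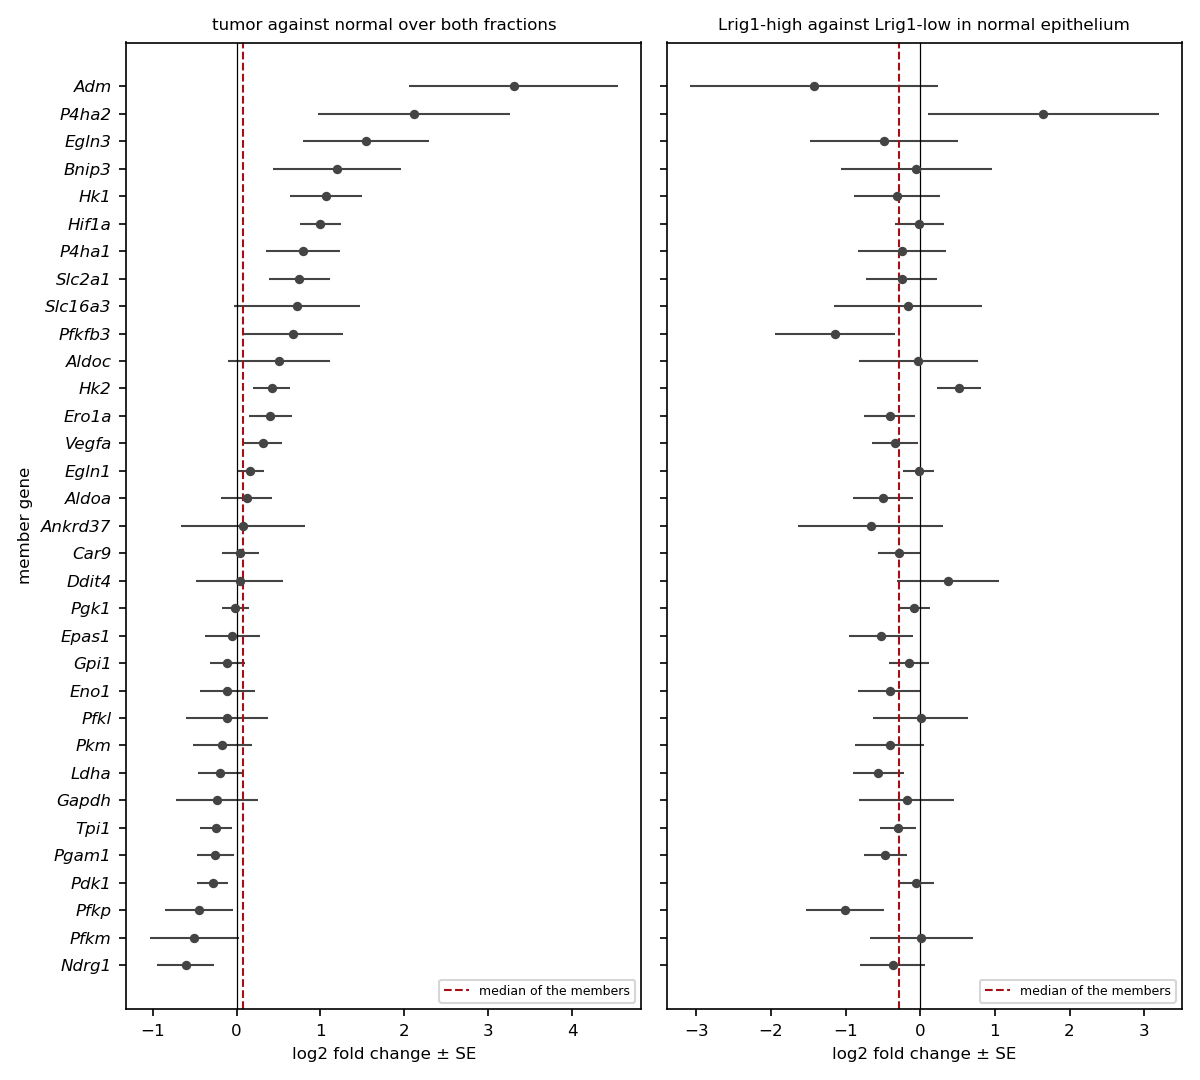
Log2 fold changes with SE (edgeR) of the 33 tested members between tumor and normal cells over both fractions (left) and between Lrig1-high and Lrig1-low cells of normal epithelium (right), in the order of the left panel, with the members' median as a dashed line. The median is 0.07 on the left and -0.28 on the right, where 28 of 33 members are below 0, and no member passes the threshold in either comparison.

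Between the sort fractions of normal epithelium, most members had a fold below 0 in Lrig1-high cells, and none was called. The fold was below 0 for 28 of 33 members, against 48.8% of all genes, with a median of -0.28 against 0.01 over all genes. EdgeR called 0 members and no other gene (0.0%), and no member had an unadjusted p under 0.05, against 3.59% of all genes. DESeq2 called none of the members and 0.00731% of all genes. Limma-voom, which gives less weight to libraries that stand apart, called 15 members lower in Lrig1-high cells, against 15.2% of all genes, and 1 higher, Hk2, against 14.8%, or 30.0% of all genes in either direction. For every member the libraries of the 2 groups overlapped, while 1.63% of all genes were higher and 1.21% lower without overlap. S10 was the highest normal Lrig1-high library for Pkm at 455 CPM, with 181 to 207 CPM in the other 3, and for Eno1 at 241 CPM, with 74.2 to 102 CPM in the other 3. Without S10 the median of the members was -0.83 and edgeR again called none. Without S07, S08, S09 and S10 the median was -0.91, and 7 members passed lower in Lrig1-high cells, against 2.3% of all genes: Slc16a3, Egln3, Pfkp, Pfkfb3, Eno1, Ldha and Aldoa. In that fit of 10 libraries Ldha had a log2 fold change of -1.02 ± 0.23 (adjusted p = 0.0372) and Pfkp one of -1.71 ± 0.35 (adjusted p = 0.0268). In those 4 libraries Lrig1 RNA goes against the label or, in S08, is low for it. Since they were left out for their RNA values, the fit is given as an alternative only.

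Hk2 was 1 of the 5 members with a fold above 0 between these fractions. It had 83.1, 81.2, 64.6 and 85.8 CPM in normal Lrig1-high libraries S02, S06, S10 and S14, against 47.1, 45.8, 53.3 and 73.4 CPM in normal Lrig1-low libraries S01, S05, S09 and S13. Only S10 was below the highest Lrig1-low library, S13. The log2 fold change of Hk2 was 0.52 ± 0.29 (adjusted p = 1.0), and 0.53 ± 0.17 with limma-voom (adjusted p = 0.0307). In tumors it had 103, 57.3 and 34.7 CPM in Lrig1-high libraries S04, S08 and S12, against 94.0, 105 and 156 CPM in Lrig1-low libraries S03, S07 and S11, a log2 fold change of -0.86 ± 0.34 (adjusted p = 0.655). The difference between these folds, the interaction of tissue and sort, was -1.38 ± 0.45 for Hk2, with an unadjusted p of 0.00828 and an adjusted p of 0.685. Without S04 the interaction of Hk2 was -1.88 ± 0.38 (adjusted p = 0.0421), in a fit that called 1.04% of all genes lower, and without S12 it was -1.05 ± 0.37 (adjusted p = 0.626). EdgeR called 0 members for the interaction and no other gene (0.0%), with 1 member under an unadjusted p of 0.05, against 7.2% of all genes. DESeq2 called none of the members and 0.0366% of all genes, and limma-voom called none.

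In tumors too, 28 of 33 members had a fold below 0 in Lrig1-high cells, against 54.3% of all genes, with a median of -0.50 against -0.06. This median was -0.28 without S11, with 22 of 33 members below 0, -0.29 without S03, with 23 of 33, and -0.67 without S07, with 32 of 33. EdgeR called 0 members and no other gene (0.0%), 1 member had an unadjusted p under 0.05, Hk2, against 7.51% of all genes, DESeq2 called none of the members and 0.164% of all genes, and limma-voom called none. Pkm was next to Hk2 with a log2 fold change of -1.15 ± 0.54 (adjusted p = 0.655). The values behind Pkm were 170.0, 287 and 76.5 CPM in Lrig1-high libraries S04, S08 and S12, against 404, 155 and 625 CPM in Lrig1-low libraries S03, S07 and S11. S07 lay within the Lrig1-high range and the other Lrig1-low libraries above it. Eno1 followed with -0.90 ± 0.49 (adjusted p = 0.679), from 105, 124 and 65.3 CPM in Lrig1-high and 202, 70.4 and 276 CPM in Lrig1-low libraries. Without S04, Ddit4 had a fold of -3.29 ± 0.71 (adjusted p = 0.0374) and Hk2 one of -1.36 ± 0.31 (adjusted p = 0.0419), the 2 members among the 2.24% of all genes that this fit called lower. Ddit4 had 25.8, 3.74 and 1.95 CPM in S04, S08 and S12, against 21.5, 19 and 43.9 CPM in S03, S07 and S11, and 25.9, 12.6, 16.7 and 21.3 CPM in normal Lrig1-high libraries S02, S06, S10 and S14. Between tumor and normal Lrig1-high cells Ddit4 had a fold of -2.74 ± 0.68 without S04 (adjusted p = 0.0408), against -0.86 ± 0.75 with it (adjusted p = 0.65). Without S04, 3.77% of all genes were called lower in that comparison.

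Libraries of the same group differed widely in how many members were high. S03 was above a member's own median over the 14 libraries for 32 of 34 members, S10 for 31, S11 for 29, S13 for 26 and S01 for 25. S07 was above it for 5, S02 and S14 for 4 each and S06 for 2. The remaining libraries lay between, with 19 members in S09, 16 in S08, 15 in S12 and in S05, and 12 in S04. S11 was the highest of the 14 libraries for 18 members and S10 for 6, and S12 was the lowest for 13 and S06 for 7. Tumor Lrig1-low cells thus hold both S03 and S11, near the top, and S07, near the bottom, and normal Lrig1-high cells hold S10 near the top and the other 3 at the bottom. The 4 libraries with the fewest members above the median, S02, S06, S07 and S14, had 5654 to 7708 CPM over 8 stem cell markers such as Lgr5 and Olfm4, and the 5 with the most had 365 to 1187 CPM. The 5 libraries between did not keep this order, with 7156 CPM in S04, 4642 in S12, 2496 in S09, 680 in S08 and 481 CPM in S05. A list of 7 proliferation markers summed to 2094 to 2922 CPM in the 4 libraries with the fewest, 926 to 2261 CPM in those between and 428 to 883 CPM in the 5 with the most. The part of these cell states in the members' levels was not tested.

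**Figure D3:**
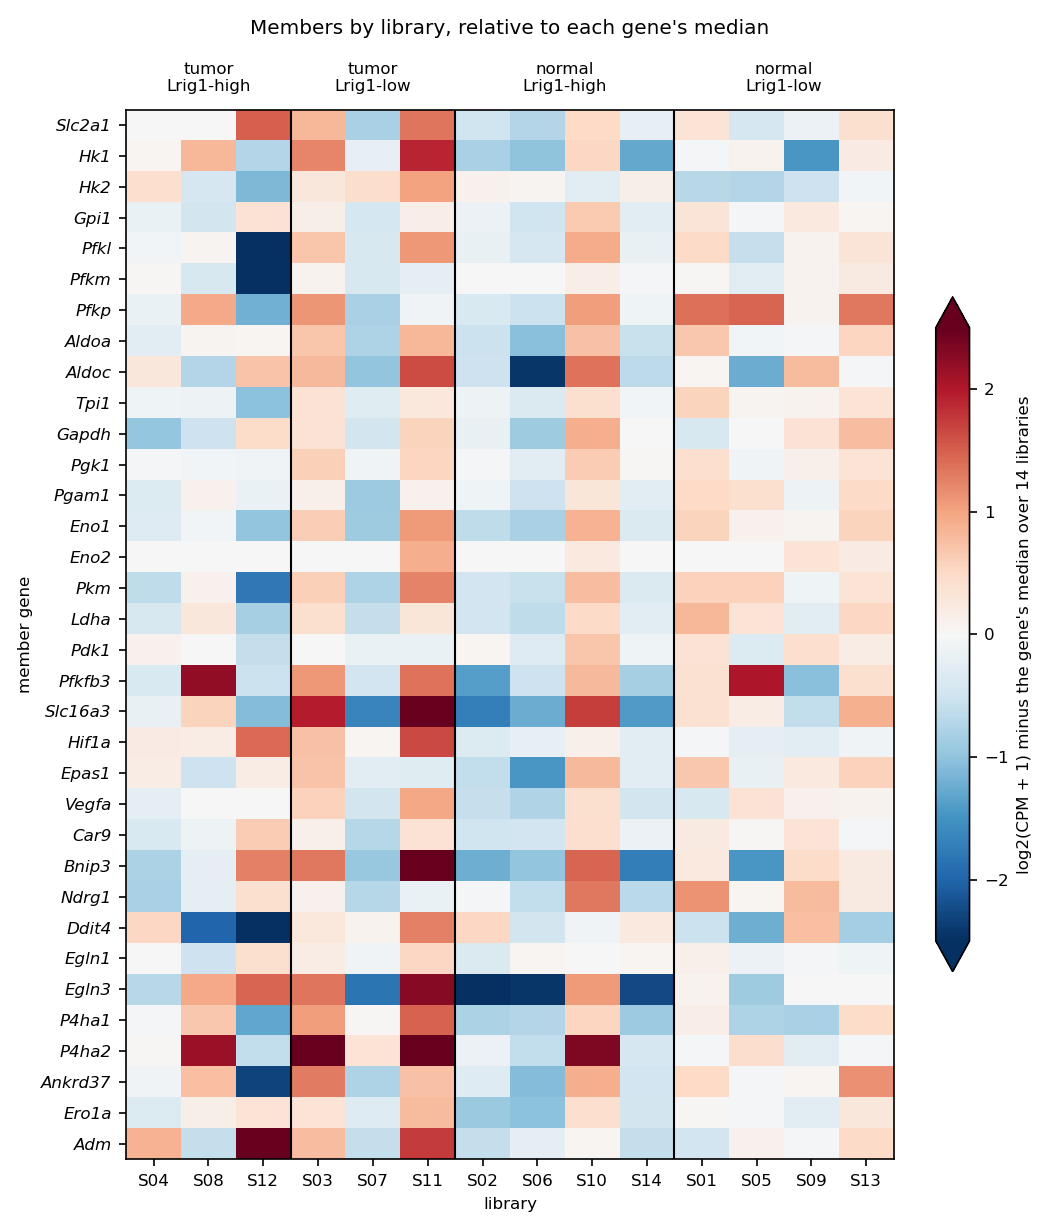
The 34 members (rows) in 14 libraries (columns), as log2(CPM + 1) minus the gene's median over the 14 libraries, with the color scale ending at 2.5 in both directions, grouped as tumor Lrig1-high, tumor Lrig1-low, normal Lrig1-high and normal Lrig1-low. S03, S10 and S11 are above the median for 32, 31 and 29 members, and S06 for 2.

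Markers of absorptive cells moved with this order in part. The 12 enterocyte markers, Alpi and Fabp1 among them, summed to 1906, 2986 and 3369 CPM in tumor Lrig1-high libraries S04, S08 and S12 and to 5504, 1250 and 2376 CPM in tumor Lrig1-low libraries S03, S07 and S11. They summed to 2367, 2017, 11369 and 2210 CPM in normal Lrig1-high libraries S02, S06, S10 and S14 and to 9077, 10024, 5247 and 7354 CPM in normal Lrig1-low libraries S01, S05, S09 and S13. Among the normal libraries, the 3 with 4 or fewer members above the median had 2017 to 2367 CPM, and the other 5 had 5247 to 11369 CPM. S11 did not follow, with 29 members above the median at 2376 CPM. It had the highest sum of the endothelial markers, with Pecam1 at 1.11 CPM. It also had 26.9 CPM over 8 fibroblast markers, against 0.541 to 10.2 CPM elsewhere, with Lum at 0 in all libraries. The part of these cell types in the members' levels was not tested.

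**Figure D4:**
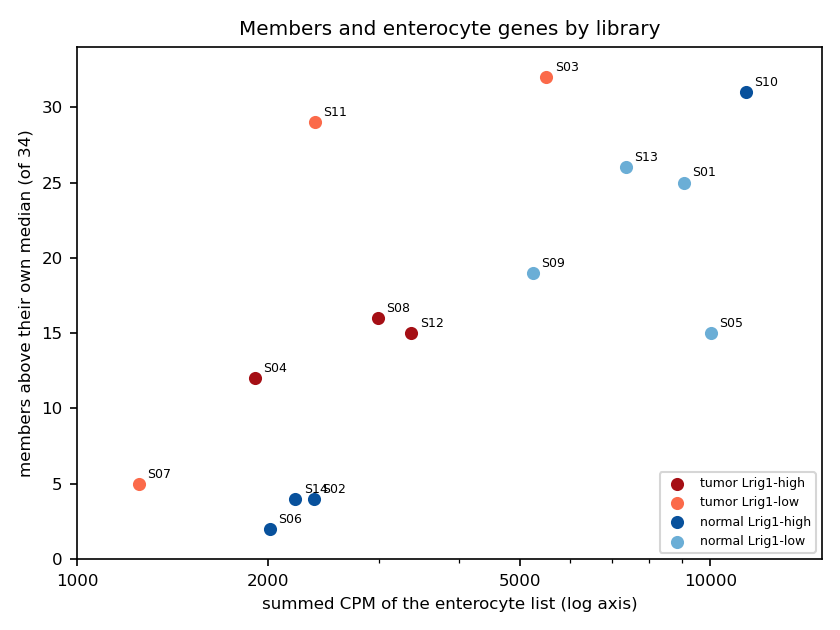
Number of the 34 members above their own median (vertical axis) against the summed CPM of 12 enterocyte markers (horizontal log axis) for 14 libraries, colored by group. The normal libraries S02, S06 and S14 lie at 2 to 4 members and 2017 to 2367 CPM, S10 at 31 members and 11369 CPM, and the tumor library S11 at 29 members and 2376 CPM.

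Several members have sister genes for the same step, and their shares of the family's CPM per kilobase are given as a description, without a test. Among the hexokinase genes Hk1, Hk2, Hk3 and Hkdc1, the share of Hk1 was 10.4%, 14.3% and 7.44% in tumor Lrig1-high libraries S04, S08 and S12 and 11.8%, 10.1% and 23.7% in tumor Lrig1-low libraries S03, S07 and S11. It was 5.74%, 5.27%, 5.51% and 4.04% in normal Lrig1-high libraries S02, S06, S10 and S14 and 4.0%, 4.15%, 1.98% and 5.54% in normal Lrig1-low libraries S01, S05, S09 and S13. In this share all 6 tumor libraries were above all 8 normal ones, S07 and S10 included. The CPM of Hk1 itself overlapped, at 9.19 to 62.2 CPM in tumor and 5.15 to 23.1 CPM in normal libraries. The share depends on the levels of Hk2 and Hkdc1 as well. Hkdc1, an intestinal member of the family, held 39.5% ± 21.5 in tumor Lrig1-low cells, against 82.6% ± 4.69 in normal Lrig1-low cells (SD, 3 and 4 libraries), and 56.1% ± 17.5 in tumor Lrig1-high cells, against 56.7% ± 16.8 in normal Lrig1-high cells.

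Of 19 isozymes in 7 families, the shares in tumor and normal libraries were apart for 1, Hk1. Shares within a family depend on each other, and no rate over all genes stands beside this count, so it cannot be told from chance. Pkm held 47.1% of pyruvate kinase in S12 and 71.7% to 92.1% in the other 13 libraries, the rest being the liver form Pklr, and Ldha held 98.7% or more of lactate dehydrogenase in every library.

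**Figure D5:**
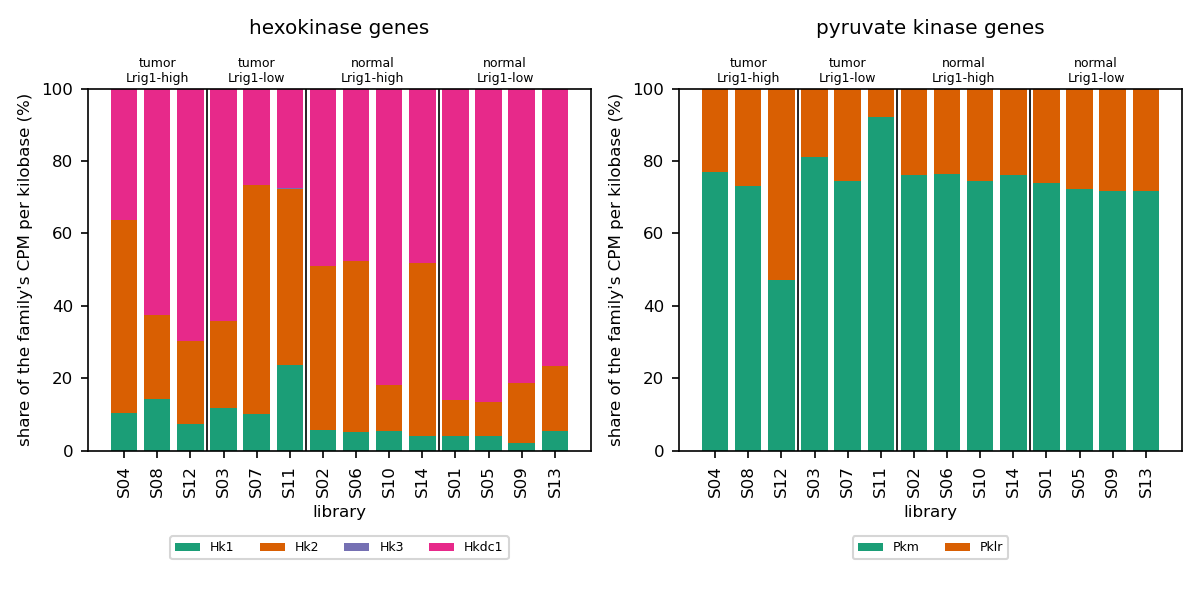
Share of each gene in the summed CPM per kilobase of 4 hexokinase genes (left) and of the pyruvate kinase genes Pkm and Pklr (right) by library, in tumor Lrig1-high, tumor Lrig1-low, normal Lrig1-high and normal Lrig1-low cells. The share of Hk1 is 7.44% to 23.7% in tumor and 1.98% to 5.74% in normal libraries, and that of Pkm is 47.1% in S12 and 71.7% to 92.1% in the other libraries.

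Further lists set the members beside other genes of the same pathways. Of 35 other genes of glycolysis and its branches, 31 were tested. Over both fractions edgeR called 1 higher and 1 lower in tumors, against 2.22% of all genes, with a median fold of -0.26. DESeq2 called 8 of the 31 there and limma-voom 2, against 7.75% and 3.95% of all genes. With edgeR 11 of the 31 had an unadjusted p under 0.05, against 17.4% of all genes, and 10 of these were lower in tumors. The gluconeogenic phosphatase Fbp1 fell to 8.02 ± 3.71 CPM in tumor cells, against 22.5 ± 7.57 CPM in normal cells, a log2 fold change of -1.49 ± 0.36 (adjusted p = 0.048). All tumor libraries of Fbp1 lay below all normal ones. Pdp1, the phosphatase that switches pyruvate dehydrogenase on, rose to 15.4 ± 13.2 CPM, against 4.29 ± 2.58 CPM in normal cells, a fold of 1.90 ± 0.44 (adjusted p = 0.0439), with 41.8 CPM in S12 alone. Without S12 the fold of Pdp1 was 1.26 ± 0.34 (adjusted p = 0.076) and without S11 it was 1.83 ± 0.48 (adjusted p = 0.121). For Fbp1 the adjusted p was 0.0601 without S12, 0.0604 without S10 and 0.145 without S11. Without S07, S08, S09 and S10 together it was 0.0773 for Fbp1 and 0.0136 for Pdp1. Over 23 other settings, single libraries left out among them, Pdp1 passed in 11 and Fbp1 in 7. In Lrig1-low cells 22 of the 31 other glycolytic genes were below 0, with a median of -0.49, and 12 had all tumor libraries below all normal ones, against 8.39% of all genes. Hkdc1, Pklr, Pfkfb4 and the glucose carrier Slc2a2 of the basolateral membrane were among the 12, and these 4 were picked from the 12 after their values were seen. No gene of the list passed the threshold of edgeR there, while DESeq2 called 6 of the 31 and limma-voom 8, against 5.16% and 10.0% of all genes. Of 36 other hypoxia genes 34 were tested and none was called in any of the 6 comparisons with edgeR on the 14 libraries. Over both fractions DESeq2 called 2 of them and limma-voom 3, against 7.75% and 3.95% of all genes. In Lrig1-low tumor against normal cells DESeq2 called 3 and limma-voom 9, against 5.16% and 10.0% of all genes. Over both fractions 8 of these 34 had an unadjusted p under 0.05, 7 of them higher in tumors, against 17.4% of all genes. The HIF partner Arnt2, nearest to the threshold, had 4.76, 1.0 and 15.2 CPM in tumor Lrig1-high and 8.10, 3.10 and 42.1 CPM in tumor Lrig1-low libraries, against 0.544 to 4.85 CPM in normal libraries, a log2 fold change of 2.61 ± 0.68 (adjusted p = 0.061). Arnt2 passed in 6 of the 23 other settings, among them DESeq2 (adjusted p = 0.00235) and edgeR without S04 (0.0427), S07 (0.0404), S08 (0.0422) or S07, S08, S09 and S10 (0.0184), and its adjusted p reached 0.263 without S11. Without S12 the fold of Arnt2 was 1.93 ± 0.62 (adjusted p = 0.121). Stc2, a secreted glycoprotein, passed in 3 of the 23 settings, with limma-voom (adjusted p = 0.000737), without S10 (0.028) and without S07, S08, S09 and S10 (0.0485), against 0.126 with all 14 libraries.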

How the data were processed

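The authors deposited raw read counts per gene for 15 libraries. Per the file headers they come from featureCounts 1.5.3 with strand option 2 (reverse) and the tool's own RefSeq exon annotation of mm10. The header names no option for fragments or multi-mapping reads. The submitters' processing notes also name Trimmomatic, HISAT2 and Subread. Gene lengths are the deposited table's own column, in bases. RefSeq gave symbols for 25275 of the 27179 identifiers and GENCODE M21 for 18 more. S15 was left out. The 14 libraries were fitted together with 1 coefficient per group in edgeR 4.0.16 (R 4.3.3) with TMM, filterByExpr, the quasi-likelihood test and Benjamini-Hochberg adjustment over 13883 genes. CPM was computed on TMM-scaled totals. Members, lists and the 4 libraries in doubt were chosen with earlier results of these data known. Values per library are given for the 5 most abundant members and for up to 3 members per direction and comparison by smallest p. Slc16a3, Egln3, Bnip3 and other members outside that rule were named after their values were seen. Some genes of the further lists and of the gene families are not reported here. Settings tried were DESeq2 1.42.0, limma-voom (limma 3.58.1), other scalings, filters and library sets.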

Additional observations from a re-analysis of the deposited data

Results flagged for a closer look

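Among the normal groups of 4 libraries, 25 of 119 groups tested had 1 library far from the other 3. In 18 of them that library was S10, labelled normal Lrig1-high, whose Lrig1 RNA goes against the label. The groups tested are genes in the same libraries, so the flags are not independent and cannot be set against a chance rate. For Eno2 and Stc2 in normal Lrig1-high cells and Plod2 in normal Lrig1-low cells, the other 3 libraries were at 0. Of the members, S10 was the highest normal Lrig1-high library for Hk1 at 23.1 CPM, Pfkl at 118 CPM, Pfkm at 12.9 CPM, Eno1 at 241 CPM, Eno2 at 0.182 CPM, Pkm at 455 CPM, Slc16a3 at 25.0 CPM, Bnip3 at 14.5 CPM, Egln3 at 28.4 CPM, P4ha1 at 11.4 CPM and P4ha2 at 6.67 CPM. Of the other pathway genes, S10 was the highest for Bnip3l at 59.1 CPM, Cited2 at 71.6 CPM, Gpd1 at 286 CPM, Pdk4 at 16.2 CPM, Pfkfb4 at 56.7 CPM and Stc2 at 0.909 CPM, and the lowest for Pdp1 at 2.0 CPM. Egln1 was lowest in S02 at 51.4 CPM.

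In normal Lrig1-high cells, S14 held 5589 CPM of Egln2, a further oxygen-sensing hydroxylase, against 40.6 to 44.5 CPM in the other 3 libraries. In normal Lrig1-low cells, Pfkp was lowest in S09 at 90.3 CPM, against 215 to 234 CPM in the others, and Egln3 was lowest in S05 at 6.62 CPM. There Arnt was highest in S01 at 57.6 CPM, Plod2 in S01 at 0.245 CPM and Hif3a in S09 at 16.4 CPM.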

How the results depend on the processing

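The count of 0 members called held for all 6 comparisons with DESeq2 size factors, totals without mitochondrial ribosomal RNA, both other filters, runs of 4 library numbers as a block and all 15 libraries, and for the 4 comparisons of 2 groups with only those groups in the fit, which was not run for the other 2. Members called higher in tumor Lrig1-low cells were 1 with DESeq2, 4 with limma-voom, 1 without S12 and 1 without S07, S08, S09 and S10. Over both fractions they were 1 with DESeq2, 1 with limma-voom and 5 without those 4 libraries. In normal Lrig1-high against Lrig1-low cells limma-voom called 1 higher and 15 lower, and the fit without the 4 libraries called 7 lower. With each library left out in turn, members called ranged from 0 to 1 (higher, Lrig1-low tumors), 0 to 2 (higher, both fractions), 0 to 1 (lower, Lrig1-high tumors), 0 to 2 (lower, sort in tumors) and 0 to 1 (lower, interaction). The libraries behind the upper ends were S12, S10, S04, S04 and S04, whose fits called 1.57%, 2.98%, 3.77%, 2.24% and 1.04% of all genes in the same directions, and the cause was not tested.

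The median fold of the members in the sort comparison of normal epithelium ranged from -0.83 without S10 to -0.14 without S06. Of 84 genes and comparisons followed, 1963 values under other settings held 0 reversed calls, 28 calls lost and 59 gained. Only Fbp1 and Pdp1 over both fractions were called in the main fit, so no other call could be reversed or lost. Folds without a call changed sign between settings in places. The fold of P4ha2 ran from -1.86 to 2.15 in the sort comparison of normal epithelium, and that of Adm from -1.03 to 3.03 in the one of tumors. Shares of counts in place of shares per kilobase moved 13 of 76 isozyme shares beyond 1 SD, but left the share of Hk1 without overlap. No number occurs in 2 groups, and the labels name no pairs. The runs of 4 used as a block hold up to 1 library of each group, in the same order of groups. The labels do not say what the runs stand for, so matched sets remain possible. With the block the members' median was -0.45 in the sort comparison of normal epithelium, against -0.28 without it. Between tumor and normal Lrig1-high cells it was 0.21, against -0.005. Multi-mapping limits the 10 members named for it, and counts near 0 limit Adm, P4ha2 and Eno2.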
